A study of Homo sapiens with 6 samples.

Results

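Apoptosis, a programmed form of cell death, is run by a small set of proteins, and the transcripts of 42 of their genes were followed here in liver cancer cells given the sophoridine derivative 6j. The 42 genes were the BCL2 family (guardians, effectors and BH3-only members), death receptors with their adaptors, a pair of necroptosis genes, caspases, apoptosome and mitochondrial factors and the inhibitor of apoptosis proteins (IAPs), chosen by symbol from the 25445 rows of the deposited count table. They took up 43 rows, because DIABLO had 2. Of the 42 genes, 40 had enough counts to be tested. BCL2A1, a guardian, had 2 counts in 6j replicate 1 and 0 in the other libraries, and RIPK3, the kinase that drives necroptosis, had 0 in all libraries. The second DIABLO row held 7 counts in non-treated replicate 1, 7 in 6j replicate 3 and 0 elsewhere, and was not tested. Each of the 2 rows shares exons with the other and with the gene AC048338.1, 3145 bases summed over both partners. The counting could therefore have split reads among them.

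RNA-seq compared MHCC-97H cells, an established human hepatocellular carcinoma line, after 16 h with 10 μM 6j (3 libraries, 6j treated) or with its solvent (3 libraries, non-treated). Both groups grew in the same serum-containing DMEM, and 6j is a derivative of the plant alkaloid sophoridine. The libraries held 31533403 to 38018349 counts. Nothing in the labels says that replicates came from separate cultures, so a p-value measures the spread between these libraries, which may be technical. Most of the 10 liver markers, chosen for hepatocytes and liver cancer, were near absent. ALB, AFP, APOA1, APOB, TTR, SERPINA1 and GPC3, or 7 of the 10, were at or under 1 CPM (counts scaled to the library's total, with TMM factors) in all 6 libraries, while the epithelial keratins KRT8 and KRT18 stood at 320.0 to 653 CPM. Summed over the 10 liver markers, the level was 905 to 1110 CPM in non-treated cells and 706 to 825 CPM in 6j treated cells. Nearly all of this sum was KRT8 and KRT18. KRT8 stood at 515.7 to 652.6 CPM in non-treated and 369.0 to 457.0 CPM in 6j treated cells. KRT18 stood at 388.3 to 455.9 and 320.0 to 365.9 CPM. HNF4A, the remaining marker, was low and overlapped between the groups. The shift therefore describes these keratins and not the other liver markers, and its part in the results below was not tested. The 8 markers of fibroblasts, leukocytes and endothelium summed to 263 to 326 CPM in non-treated and 261 to 318 CPM in 6j treated cells. Most of this was COL1A1, at 203 to 276 CPM over the 6 libraries, and CD68, at 39.8 to 70.5 CPM. PDGFRB stood at 3.77 to 6.81 CPM, PECAM1 and VWF were under 1 CPM, and PTPRC, CD3E and COL1A2 were at 0.

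In the mitochondrial route of apoptosis, guardians such as BCL2 and MCL1 hold the effectors BAX and BAK1 in check, BH3-only proteins relieve that hold, and the effectors then open the outer mitochondrial membrane. Cytochrome c (CYCS) leaves through these openings and joins APAF1 and pro-caspase 9 in the apoptosome, while SMAC (DIABLO) and HTRA2 block the IAPs. In the other route, death receptors at the cell surface recruit FADD and caspase 8, and CFLAR keeps caspase 8 inactive.

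The start regions of some of the genes that changed are shown before the values. Promoter windows from RefSeq (build GRCh38.p14), which run from 250 bases before to 50 bases after a gene's start, were found for 31 of the 40 tested genes. BCL2L2 and TNFRSF10B, which also passed the test, had no window and were not searched for motifs. The windows of HRK and BIRC2 are shown because they were the ones among the members that held a stress-linked motif searched for, and those of CASP4 and CASP9 because these genes passed the test without one. Each is printed 5′ to 3′ on the gene's own strand, with the matched letters in capitals. The HRK window is chr12:116881392-116881691 on the minus strand, that of BIRC2 is chr11:102346964-102347263 on the plus strand, that of CASP4 is chr11:104968525-104968824 on the minus strand, and that of CASP9 is chr1:15524741-15525040 on the minus strand.
HRK: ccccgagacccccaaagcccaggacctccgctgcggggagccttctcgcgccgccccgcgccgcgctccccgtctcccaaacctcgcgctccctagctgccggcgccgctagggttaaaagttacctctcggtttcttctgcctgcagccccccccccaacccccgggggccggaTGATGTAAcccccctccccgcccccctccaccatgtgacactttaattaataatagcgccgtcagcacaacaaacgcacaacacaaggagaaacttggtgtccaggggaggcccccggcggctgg
BIRC2: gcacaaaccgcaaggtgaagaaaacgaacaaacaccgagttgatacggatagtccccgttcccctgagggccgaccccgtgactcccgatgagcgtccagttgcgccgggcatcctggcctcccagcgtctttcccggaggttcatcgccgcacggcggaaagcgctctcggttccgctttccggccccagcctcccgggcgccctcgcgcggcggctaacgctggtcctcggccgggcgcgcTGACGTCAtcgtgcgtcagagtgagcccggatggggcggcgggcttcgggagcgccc
CASP4: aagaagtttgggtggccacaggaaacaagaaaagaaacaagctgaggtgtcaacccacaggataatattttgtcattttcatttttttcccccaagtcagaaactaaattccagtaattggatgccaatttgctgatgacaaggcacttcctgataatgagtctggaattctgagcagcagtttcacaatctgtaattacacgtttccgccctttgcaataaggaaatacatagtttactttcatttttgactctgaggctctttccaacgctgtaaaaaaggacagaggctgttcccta
CASP9: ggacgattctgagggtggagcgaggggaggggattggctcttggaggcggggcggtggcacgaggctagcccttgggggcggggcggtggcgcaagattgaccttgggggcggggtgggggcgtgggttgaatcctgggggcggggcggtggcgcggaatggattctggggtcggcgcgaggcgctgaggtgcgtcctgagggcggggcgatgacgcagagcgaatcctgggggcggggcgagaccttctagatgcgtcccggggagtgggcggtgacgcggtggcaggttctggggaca
The HRK window held TGATGTAA, a match to the core of the C/EBP-ATF response element (searched as TGATGNAA on both strands), beginning 75 bases before the gene's start. The BIRC2 window held TGACGTCA, the cAMP response element that CREB and ATF proteins bind, beginning 7 bases before the start. Among all 35116 windows of this length, 3.62% held the first motif and 1.85% the second, and among the 56 windows of the 31 genes 1 held the first and 2 overlapping windows of BIRC2 held the second. The TATA box letters TATAAA were found in 11.5% of all windows and, among the members, in those of BCL2L1, CASP8 and RIPK1. G and C made up 66.3% of the HRK window, 68.7% of that of BIRC2, 71.3% of that of CASP9 and 39.7% of that of CASP4, against a median of 58.7% over all windows. The RefSeq starts of CASP4 and CASP9 lie 862 and 1744 bases from the 5′ ends of these genes in GENCODE 29, so their windows may not be the start used in these cells. A match to letters is a description and not a bound site.

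Between 6j treated and non-treated cells, 6 of the 40 genes changed. The BH3-only gene HRK, the TRAIL receptor TNFRSF10B, the guardian BCL2L2, the inflammatory caspase CASP4 and the IAP gene BIRC2 rose, and the initiator caspase CASP9 fell. These passed edgeR's quasi-likelihood test with a Benjamini-Hochberg adjusted p under 0.05 over all 15957 rows tested, which is what passing the test means below. The 5 genes that rose were 12.5% of the 40, against 4.79% of all rows, and the gene that fell was 2.5%, against 4.37% of all rows. With a fold change above 1.5 required as well, the study's fold threshold for a differentially expressed gene (DEG), HRK (DEGs that rose were 2.48% of all rows) and CASP9 (DEGs that fell were 1.12%) were DEGs. The log2 fold changes of the 40 genes ran from −0.59 to 2.54, with 21 above and 19 below 0, and their median of 0.02 lay beside 0.0046 for all rows. In bulk RNA, fewer cells that express a gene and less of its RNA per cell cannot be told apart.

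No label says what a replicate number marks, and the numbers were taken to pair the libraries from correlations in these same data. With the number as a block in the model 14 of the 40 genes passed, and the calls that the block added rest on that reading. The 9 that rose were 22.5% of the 40, against 13.1% of all rows, and added BBC3, PMAIP1, XIAP and BIRC3 to the genes above. The 5 that fell were 12.5%, against 13.9% of all rows, and added CYCS, HTRA2, BID and TNFRSF1A to CASP9. Libraries of the 2 groups did not overlap for 8 genes that were higher (20.0%, against 16.0% of all rows) and 4 that were lower in 6j treated cells (10.0%, against 15.8%). Leaving out 1 library ended many of these calls: in the fit without non-treated replicate 1 and in that without 6j replicate 2, 0 of the 40 genes passed in edgeR, while 9 and 10 had an unadjusted p under 0.05 and the whole table held 202 and 217 calls. All 6 genes kept their direction and an unadjusted p under 0.05 in each of the 6 fits that left out 1 library.

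**Figure D1:**
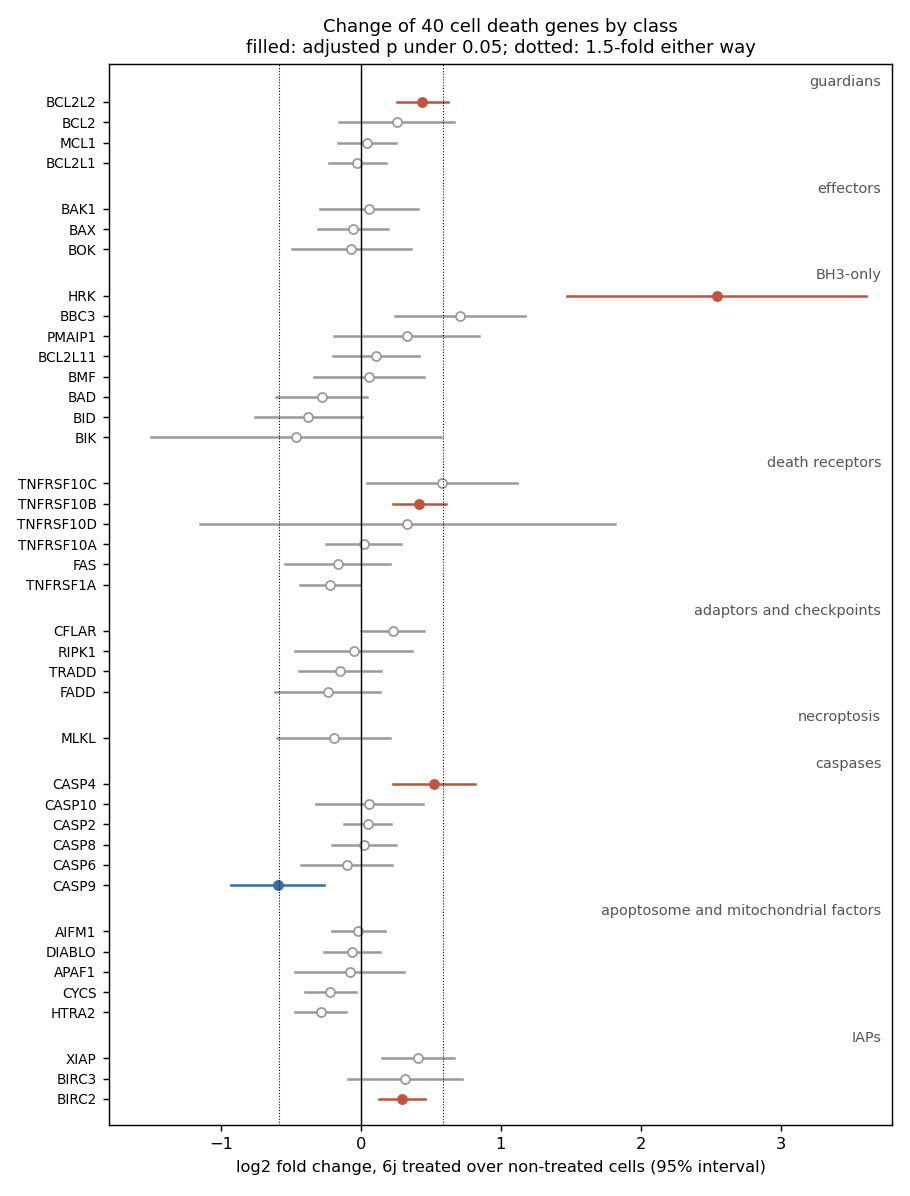
Log2 fold change of 6j treated over non-treated cells (horizontal axis) for the 40 tested genes, grouped by class, with bars for the 95% interval from edgeR, filled points for an adjusted p under 0.05 and dotted lines at 1.5-fold either way. HRK stands at 2.54, away from the other genes, and CASP9 at −0.59 is the filled point on the lower side.

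Transcript levels differed widely between the genes. Per kilobase of exon, the guardian MCL1 was highest at a mean of 102 CPM in non-treated and 105 CPM in 6j treated cells. In non-treated cells CYCS and TNFRSF1A followed, with 47.4 and 31.7 CPM per kilobase, and in 6j treated cells CYCS and TNFRSF10B, with 40.7 and 36.7. At the other end HRK stood at 0.105 and 0.609 CPM per kilobase, BIK at 0.673 and 0.486, and CASP10 at 0.829 and 0.863.

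**Figure D2:**
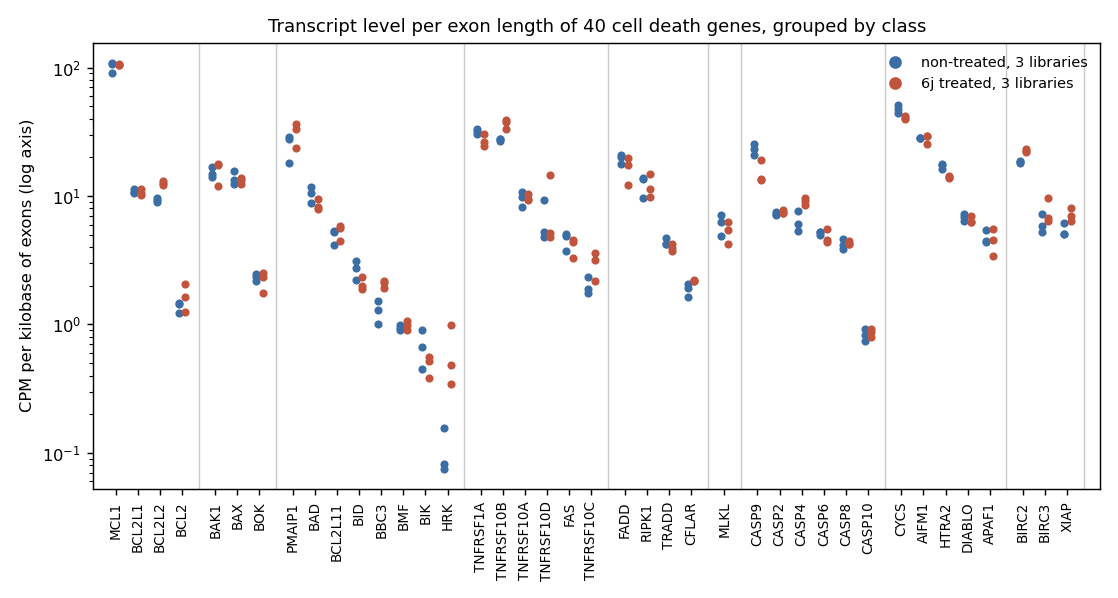
Level of the 40 genes in CPM per kilobase of exon (log axis), with 1 point for each library, non-treated in blue and 6j treated in red, and vertical lines between the classes. MCL1 lies near 100 CPM per kilobase in all libraries, and HRK is lowest in the non-treated ones.

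Of the guardians, which keep the effectors inactive, BCL2L2 (BCL-w) rose and the 3 others tested did not pass. BCL2L2 (ENSG00000129473, chromosome 14, 23298790 to 23311759, plus strand) stood at 37.5, 39.2 and 40.1 CPM in non-treated replicates 1 to 3 and at 54.4, 53.0 and 51.0 CPM in 6j treated ones. Every 6j treated library lay above every non-treated one, by more than the spread within either group. Its mean went from 38.9 ± 1.31 to 52.8 ± 1.67 CPM (SD, n = 3 each), which is 0.44 on the log2 scale (standard error, SE, 0.081, adjusted p = 0.0145 in edgeR). Without non-treated replicate 1 the adjusted p was 0.0828 and without 6j replicate 2 it was 0.0703, while BCL2L2 passed in the other 4 fits that left out 1 library. The gene shares 813 exonic bases with the read-through gene BCL2L2-PABPN1, which was at 0 in the non-treated libraries and at 1.51, 1.69 and 0 CPM in 6j replicates 1 to 3. On the other strand it overlaps PPP1R3E over 206 bases, and PPP1R3E rose by 0.83 on the log2 scale (edgeR adjusted p = 0.0117). Whether the counting used strand is not stated, and the part of these neighbours in the BCL2L2 value was not tested.

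BCL2L1 (BCL-xL) was at −0.02 on the log2 scale (adjusted p = 0.900 in edgeR, 95% interval −0.23 to 0.18), and MCL1 at 0.04 (adjusted p = 0.813, interval −0.16 to 0.25). BCL2 was at 0.25 with an interval of −0.15 to 0.66, wide enough to hold a change of 1.5-fold. Within each library, the log2 ratio of BCL2L2 to BCL2L1 counts ran from 0.067 to 0.21 in non-treated and from 0.54 to 0.61 in 6j treated cells, which describes the unequal change of these 2 guardians.

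The effectors BAX, BAK1 and BOK, which form the pores in the outer mitochondrial membrane, gave no call (0 of 3 in edgeR, 0 with an unadjusted p under 0.05, 0 in DESeq2 and 0 with the replicate block). Their log2 fold changes were −0.06, 0.06 and −0.07, and their 95% intervals ended within 1.5-fold either way. BAK1 stood at 31.1 to 36.9 CPM in non-treated libraries and at 39.2, 38.7 and 26.6 CPM in 6j replicates 1 to 3, so that its 6j treated libraries lay on both sides of the non-treated ones.

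HRK had the largest log2 fold change of the 40 genes. Its protein, harakiri, is a BH3-only activator of cell death that binds BCL2 and BCL-xL. HRK (ENSG00000135116, chromosome 12, 116856144 to 116881441, minus strand) had 21, 34 and 18 counts in non-treated replicates 1 to 3 and 91, 258 and 114 counts in 6j treated ones, or 0.557, 1.08 and 0.517 CPM against 2.37, 6.82 and 3.32 CPM. The groups did not overlap, and replicate 2 was the highest library of both. The mean rose from 0.718 ± 0.313 to 4.17 ± 2.35 CPM (SD, n = 3 each), which is 2.54 on the log2 scale (SE 0.47, adjusted p = 0.0158 in edgeR) with a 95% interval of 1.47 to 3.61. Within replicate numbers the log2 ratios were 2.06, 2.64 and 2.65. The adjusted p was 0.0843 without non-treated replicate 1, 0.0562 without non-treated replicate 3 and 0.0686 without 6j replicate 2, while the log2 fold change stayed between 1.99 and 2.95 in all 6 such fits. At these counts HRK remained the lowest of the tested genes per kilobase in non-treated cells. Its promoter window, printed above, is the one with TGATGTAA.

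BBC3 and PMAIP1, the genes of the BH3-only proteins PUMA and NOXA, passed in edgeR with the replicate block and not without it. BBC3 stood at 3.19, 4.09 and 4.83 CPM in non-treated replicates 1 to 3 and at 6.09, 6.72 and 6.99 CPM in 6j treated ones, without overlap. Its log2 fold change was 0.71 (SE 0.21 and adjusted p = 0.0617 in edgeR, 0.0104 with the replicate block and 0.0257 in DESeq2), and with the block, where DEGs that rose were 4.01% of all rows, or in DESeq2 it counted as a DEG. PMAIP1 stood at 62.1, 63.9 and 40.4 CPM in non-treated libraries and at 74.5, 81.0 and 53.1 CPM in 6j treated ones. Replicate 3 was the lowest of both groups, so the groups overlapped although each 6j treated library lay above the non-treated one of its number. Its log2 fold change was 0.33 (SE 0.22 and adjusted p = 0.404 in edgeR), and with the block the standard error was 0.062 and the adjusted p 0.00231.

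BID, which caspase 8 cleaves to link the death receptors to mitochondria, passed with the block in the other direction. It stood at 13.9, 9.80 and 12.2 CPM in non-treated libraries and at 10.5, 8.33 and 8.85 CPM in 6j treated ones, a log2 fold change of −0.38 (SE 0.17 and adjusted p = 0.196 in edgeR and 0.0467 with the replicate block). In DESeq2 with the same block BID did not pass (adjusted p = 0.151). Among the other BH3-only genes, BCL2L11 (BIM) was at 0.11, BMF at 0.06, BAD at −0.28 and BIK at −0.47 on the log2 scale, all short of the test with and without the block. BIK had 14 to 27 counts per library, and its interval of −1.50 to 0.57 held a fall of more than 1.5-fold. Of the 8 genes of this class, 1 rose without the block (12.5%, against 4.79% of all rows), and with it 3 rose (37.5%, against 13.1%) and 1 fell (12.5%, against 13.9%).

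**Figure D3:**
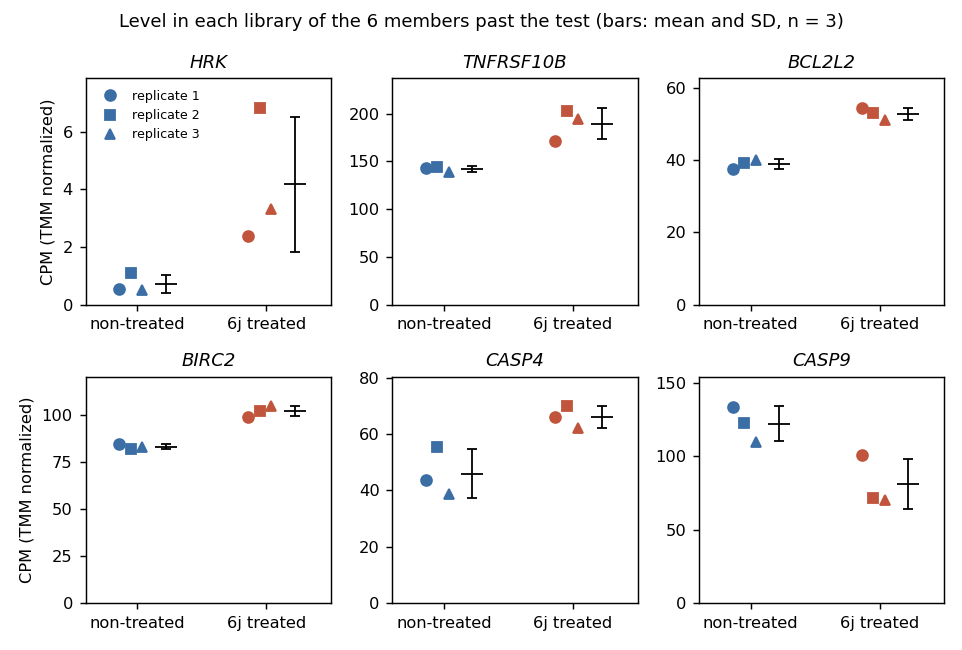
CPM in each library (points, shaped by replicate number) for the 6 genes that passed the test, with the mean and SD of 3 libraries beside each group and axes that start at 0. The 6j treated libraries lie above the non-treated ones for HRK, TNFRSF10B, BCL2L2, BIRC2 and CASP4, and below them for CASP9.

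Among the 6 death receptors, TNFRSF10B, the TRAIL receptor also called DR5, rose (16.67%, against 4.79% of all rows). TNFRSF10B (ENSG00000120889, chromosome 8, 23020133 to 23069179, minus strand) stood at 143, 144 and 139 CPM in non-treated replicates 1 to 3 and at 171, 203 and 194 CPM in 6j treated ones. The lowest 6j treated library was above the highest non-treated one. The mean rose from 142 ± 2.87 to 189.5 ± 16.3 CPM (SD, n = 3 each), which is 0.42 on the log2 scale (SE 0.085, adjusted p = 0.0198 in edgeR), or 1.34-fold, below the DEG threshold. The adjusted p was 0.0948, 0.0577 and 0.0658 without non-treated replicates 1, 2 and 3 and 0.0968 without 6j replicate 2. RHOBTB2 overlaps it over 67 bases on the other strand and was at −0.14 on the log2 scale (edgeR adjusted p = 0.525).

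The other TRAIL receptors lie beside it in a cluster on chromosome 8. TNFRSF10A (DR4), which also signals death, was at 0.02 on the log2 scale (95% interval −0.25 to 0.28) and stood at 24.4 to 32.0 CPM in non-treated and 27.7 to 30.6 CPM in 6j treated cells. The log2 ratio of TNFRSF10B to TNFRSF10A counts was 2.16 to 2.51 in non-treated and 2.63 to 2.79 in 6j treated libraries. The decoy receptors TNFRSF10C and TNFRSF10D bind TRAIL without passing on a full death signal. TNFRSF10C stood at 3.29, 3.52 and 4.40 CPM against 5.93, 6.69 and 4.11 CPM, a log2 fold change of 0.58 that did not pass (adjusted p = 0.162 in edgeR and 0.0931 with the block), and it shares 249 exonic bases with AC107959.5. TNFRSF10D stood at 18.7, 16.9 and 33.1 CPM against 16.9, 18.2 and 51.5 CPM, so that replicate 3 was high in both groups, and its log2 fold change of 0.33 turned to −0.39 without 6j replicate 3. TNFRSF1A, the main TNF receptor, stood at 128, 132 and 121 CPM against 122, 98.8 and 106 CPM, a log2 fold change of −0.22 (SE 0.094 and adjusted p = 0.175 in edgeR and 0.0450 with the block). FAS, the receptor of FAS ligand, was at −0.17 and did not pass in either fit.

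The adaptors and checkpoints FADD, TRADD, CFLAR and RIPK1, which carry or hold back the signal from the receptors, gave no call in edgeR (0 of 4, with 1 unadjusted p under 0.05), in DESeq2 (0) or with the block (0). CFLAR, the gene of c-FLIP, stood at 43.2, 46.4 and 37.0 CPM against 49.99, 48.7 and 49.4 CPM, a difference of 0.23 on the log2 scale (edgeR adjusted p = 0.188 and 0.0557 with the block), and its groups did not overlap. FADD was at −0.24, TRADD at −0.15 and RIPK1 at −0.05. MLKL, which perforates the plasma membrane in necroptosis, was at −0.20 with an adjusted p of 0.537 in edgeR (0 of 1 past the test, 0 at an unadjusted p under 0.05 and 0 in DESeq2), and RIPK3, its activating kinase, was at 0 counts throughout.

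Of the 6 caspases, the initiator CASP9 fell, CASP4 rose and 4 did not pass. The 1 gene in each direction was 16.67% of the class, against 4.37% of all rows that fell and 4.79% that rose. CASP9 (ENSG00000132906, chromosome 1, 15490832 to 15526534, minus strand), the caspase that the apoptosome activates, stood at 134, 122 and 110.0 CPM in non-treated replicates 1 to 3 and at 101, 71.5 and 70.4 CPM in 6j treated ones. The highest 6j treated library was below the lowest non-treated one. Its mean fell from 122 ± 11.9 to 80.9 ± 17.2 CPM (SD, n = 3 each), which is −0.59 on the log2 scale (SE 0.15, adjusted p = 0.0400 in edgeR and 0.000186 with the block). At 1.51-fold lower, it lay just past the DEG threshold, and the fold change was under 1.5 with library totals as the scaling or with Ensembl rows alone. It passed in 1 of the 6 fits that left out 1 library, that without 6j replicate 1 (adjusted p = 0.00781), and in the 5 others the adjusted p was 0.0618 to 0.158. The overlapping gene CELA2B on the other strand stayed at or under 0.106 CPM.

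CASP4, an inflammatory caspase that senses bacterial lipopolysaccharide inside cells, lies on chromosome 11 (ENSG00000196954, 104942866 to 104969436, minus strand). It stood at 43.7, 55.5 and 38.8 CPM in non-treated replicates 1 to 3 and at 66.1, 69.9 and 62.0 CPM in 6j treated ones, without overlap and with replicate 2 highest in both groups. The mean rose from 46.0 ± 8.57 to 66.0 ± 3.93 CPM (SD, n = 3 each), which is 0.52 on the log2 scale (SE 0.13, adjusted p = 0.0388 in edgeR and 0.000497 with the block). Without non-treated replicate 2 it passed at an adjusted p of 0.0183, and in the 5 other such fits the adjusted p was 0.0520 to 0.155. The other 4 were CASP8 and CASP10, the initiators at death receptors, with log2 fold changes of 0.02 and 0.06, CASP2, an initiator, with 0.05, and the executioner CASP6 with −0.10. Their adjusted p-values in edgeR ran from 0.714 to 0.915, and their 95% intervals ended within 1.5-fold either way. The log2 ratio of CASP9 to CASP8 counts was 1.86 to 2.15 in non-treated and 1.12 to 1.72 in 6j treated libraries.

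The 5 apoptosome and mitochondrial factors had log2 fold changes from −0.29 to −0.02, while 8086 of all 15957 rows were above 0. When libraries were left out, APAF1 reached 0.082 (without 6j replicate 1), AIFM1 0.0524 and DIABLO 0.00847 (both without replicate 3 of both groups). In edgeR 0 of the 5 passed without the block (2 had an unadjusted p under 0.05, and 1, HTRA2, passed in DESeq2). With the block, CYCS and HTRA2 fell, 2 of the 5, against 13.9% of all rows. CYCS stood at 211, 196 and 226.5 CPM in non-treated replicates 1 to 3 and at 179, 186 and 178 CPM in 6j treated ones, with no overlap and a log2 fold change of −0.22 (SE 0.081 and adjusted p = 0.122 in edgeR and 0.0317 with the block). HTRA2, a mitochondrial protease that blocks IAPs once released, stood at 52.0, 53.2 and 49.0 CPM against 42.7, 41.3 and 42.3 CPM. Its libraries did not overlap either, and the log2 fold change was −0.29 (SE 0.081 and adjusted p = 0.0567 in edgeR, 0.0119 with the block and 0.0316 in DESeq2). HTRA2 overlaps AUP1 and LOXL3 on the other strand, over 1108 bases summed over these 2 genes. AUP1 and LOXL3 had log2 fold changes of −0.0027 and −0.37 with adjusted p-values of 0.992 and 0.550 in edgeR. APAF1, the scaffold of the apoptosome, was at −0.08, DIABLO at −0.06 and AIFM1, a flavoprotein that can move from mitochondria to the nucleus in dying cells, at −0.02, with 95% intervals within 1.5-fold.

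The 3 IAP genes among the members, whose proteins bind caspases or the receptor complexes, had similar log2 fold changes of 0.29 to 0.41. BIRC2 (cIAP1, ENSG00000110330, chromosome 11, 102347211 to 102378670, plus strand) stood at 84.9, 82.1 and 83.1 CPM in non-treated replicates 1 to 3 and at 99.4, 102 and 105 CPM in 6j treated ones. The groups lay apart, with little spread in each. Its mean rose from 83.3 ± 1.41 to 102 ± 2.72 CPM (SD, n = 3 each), which is 0.29 on the log2 scale (SE 0.071, adjusted p = 0.0363 in edgeR and 0.00379 with the block). It passed without 6j replicate 1 (adjusted p = 0.0425), and the 5 other fits that left out 1 library gave 0.0758 to 0.134. BIRC2 is the gene whose window, printed above, holds TGACGTCA.

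XIAP, which inhibits caspases directly, stood at 46.0, 45.7 and 55.2 CPM in non-treated libraries and at 58.1, 63.6 and 73.4 CPM in 6j treated ones, without overlap. Its log2 fold change was 0.41 (SE 0.11 and adjusted p = 0.0569 in edgeR), and it passed with the block (0.000961), in DESeq2 (0.0181) and without 6j replicate 1 (0.0421). XIAP also passed in edgeR with library totals as the scaling, without the filter on low counts and over Ensembl rows alone. BIRC3 (cIAP2), which lies beside BIRC2 on chromosome 11, stood at 44.0, 54.5 and 39.4 CPM against 50.8, 72.4 and 48.2 CPM. Replicate 2 was the highest library of both groups, which overlapped, and each 6j treated library lay above the non-treated one of its number. The log2 fold change of BIRC3 was 0.32 (SE 0.18 and adjusted p = 0.312 in edgeR and 0.00812 with the block). The log2 ratio of BIRC2 to BIRC3 counts had a mean of 0.87 in non-treated and 0.86 in 6j treated libraries. With the block, 3 of these 3 IAP genes rose, against 13.1% of all rows, and in edgeR with all libraries and no block 1 of 3 did, against 4.79%. BIRC5, BIRC6 and BIRC7, genes of the same family outside the members, did not pass in edgeR with or without the block. Their log2 fold changes without the block were −0.15, −0.02 and 0.005, and BIRC7 had 0 to 28 counts per library.

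**Figure D4:**
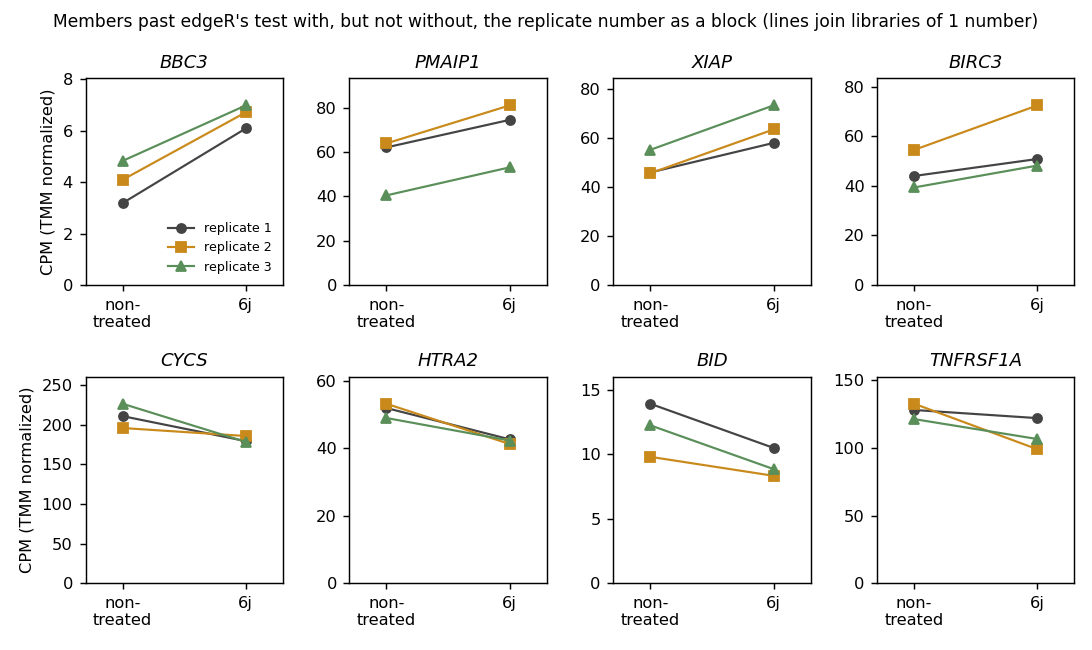
CPM of the 8 genes that passed edgeR's test in the fit with a replicate block and not in that of all libraries without it (BBC3, HTRA2 and XIAP also passed in DESeq2 without a block), with lines that join the non-treated and the 6j treated library of 1 number and axes that start at 0. All lines rise for BBC3, PMAIP1, XIAP and BIRC3 and fall for CYCS, HTRA2, BID and TNFRSF1A, and PMAIP1 shows replicate 3 below the others in both groups.

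Of the 34 genes that did not pass, 22 had a 95% interval that ended within 1.5-fold either way. The other 12, namely BCL2, BBC3, PMAIP1, BID, BAD, BIK, TNFRSF10C, TNFRSF10D, FADD, MLKL, XIAP and BIRC3, had intervals that reached past 1.5-fold, and those of BBC3, XIAP and TNFRSF10C lay wholly above 0.

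**Figure D5:**
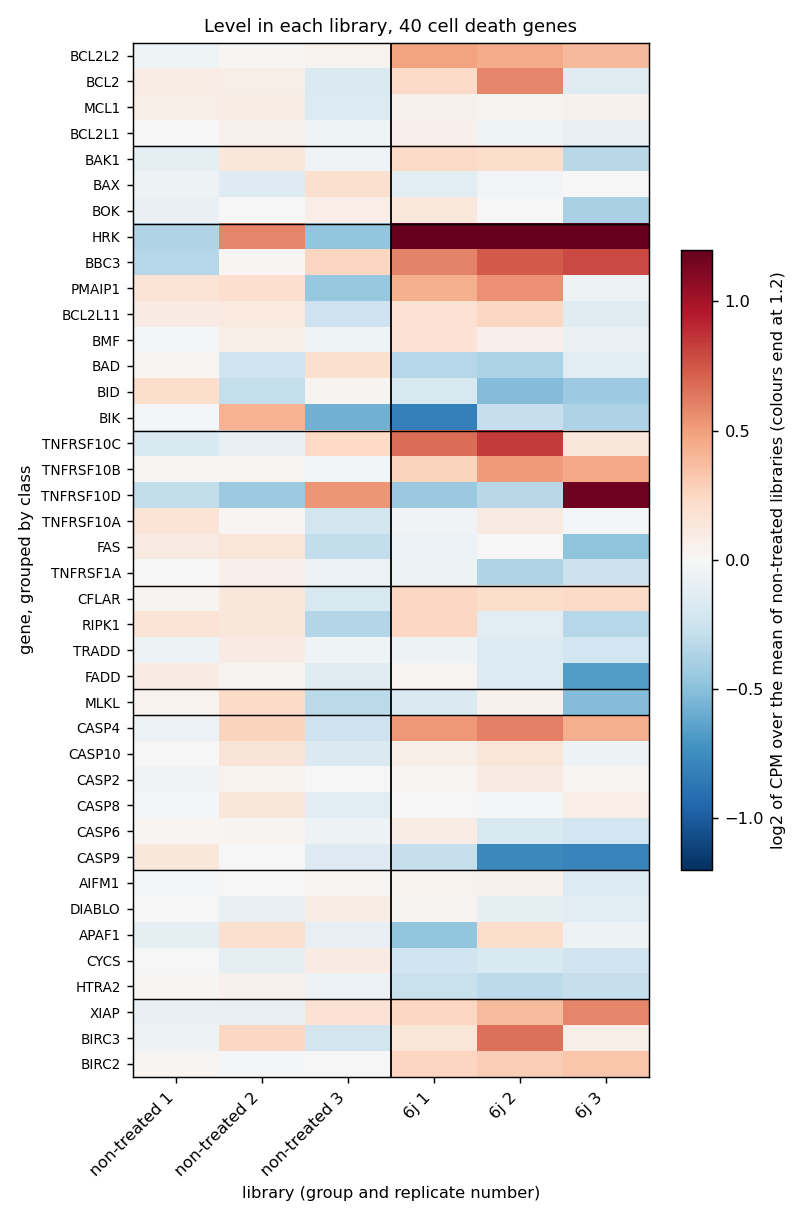
Level of each of the 40 genes in each of the 6 libraries, as the log2 of CPM over the mean of the non-treated libraries, with colours that end at 1.2 on the log2 scale. The rows of HRK, BCL2L2, BBC3, TNFRSF10B, CASP4, XIAP and BIRC2 are red in all 6j treated libraries, CASP9 is blue in them, and TNFRSF10D is red in replicate 3 of both groups. Other genes also lay on 1 side of the non-treated mean in all 6j treated libraries. Among these, BID, BAD, BIK, TRADD, HTRA2, CYCS and TNFRSF1A lay below it, and CFLAR, BIRC3 and TNFRSF10C above it.

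Further death genes were read from a list of 55 that held executioner caspases, TRAIL and FAS ligands, mitochondrial channels and modifiers of receptor complexes. The list was written from general knowledge but with earlier results of these data known, so shares within it are descriptions. Of the 55 genes, 48 were tested, 3 rose (6.25%, against 4.79% of all rows) and 5 fell (10.4%, against 4.37%), and the median log2 fold change was −0.08. With the block 7 rose (14.6%, against 13.1% of all rows) and 12 of the 48 fell (against 13.9% of all rows). PEA15, which binds FADD and caspase 8 and blocks their assembly, stood at 67.0, 79.0 and 73.8 CPM in non-treated and at 114, 135 and 131 CPM in 6j treated libraries. Its log2 fold change was 0.79 (SE 0.097 and adjusted p = 0.00398 in edgeR), and it passed in all 6 fits that left out 1 library. RBCK1 (HOIL-1), a subunit of the linear ubiquitin ligase of the TNF receptor complex, rose by 0.94 on the log2 scale, from 80.3 ± 21.2 to 154 ± 18.5 CPM (SD, n = 3 each, adjusted p = 0.0234 in edgeR). CYLD, a deubiquitinase that counters this ligase, rose by 0.61, from 38.5 ± 0.530 to 58.8 ± 13.4 CPM (adjusted p = 0.0388).

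A further 3 genes of the list are given here although they did not pass without the block, and were chosen after their values were seen. RNF31 (HOIP), the catalytic subunit of the same ligase, stood at 49.4, 48.2 and 41.7 CPM in non-treated replicates 1 to 3 and at 38.9, 33.9 and 27.4 CPM in 6j treated ones, or −0.48 on the log2 scale (edgeR adjusted p = 0.0579, 0.00120 with the block and 0.0128 in DESeq2). It shares 1732 exonic bases with AL136295.5. SHARPIN, the remaining subunit, was at −0.04 (edgeR adjusted p = 0.818). TNFSF10, the gene of TRAIL, stood at 7.11, 8.09 and 1.38 CPM against 3.05, 1.75 and 0.524 CPM, so that replicate 3 was lowest in both groups and each 6j treated library lay below the non-treated one of its number. Its difference was −1.63 on the log2 scale (edgeR adjusted p = 0.292, 0.00089 with the block and 0.235 in DESeq2 without it).

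The 5 genes that fell stood apart between the groups, with every 6j treated library below every non-treated one. MAP3K5 (ASK1), a stress-activated kinase upstream of JNK and p38, fell from 15.9 ± 0.273 to 11.0 ± 0.490 CPM (SD, n = 3 each), which is −0.54 on the log2 scale (adjusted p = 0.0230 in edgeR). BAG3, an HSP70 co-chaperone with anti-apoptotic activity, was at −0.42 (adjusted p = 0.0164) and PARP1, the DNA damage sensor that caspases cleave, at −0.43 (adjusted p = 0.0167). TNFRSF21 (DR6), a death receptor of the TNF receptor family, was at −0.63 (adjusted p = 0.0350), and VDAC1, the main channel of the outer mitochondrial membrane, at −0.37 (adjusted p = 0.0460). Leaving out 1 library ended the call of each of the 8 genes but PEA15 in at least 3 of 6 fits, among them those without non-treated replicate 1 and without 6j replicate 2, where the adjusted p of the 7 genes was 0.0616 to 0.171.

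Of 8 transcription factors known to act on these genes, 5 rose (62.5%, against 4.79% of all rows): DDIT3 (CHOP) by 2.27, ATF3 by 1.60, ATF4 by 1.10, FOXO3 by 0.62 and XBP1 by 0.53 on the log2 scale, with adjusted p-values in edgeR of 0.000575 to 0.0201. This list was chosen with earlier results of these data known, and the study had picked ATF3 and DDIT3 from the same RNA-seq. The share is therefore a description and not a test. FOXO3 and XBP1 did not pass in the fit without non-treated replicate 1 or in that without 6j replicate 2 (adjusted p 0.0744 to 0.102), nor FOXO3 without non-treated replicate 2 (0.0619), and TP73 and E2F1, at −0.90 and 0.12, did not pass with all libraries.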

How the data were processed

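For 3 non-treated and 3 6j treated MHCC-97H libraries, RNA was enriched with oligo(dT) beads and sequenced by a company. The deposited table held raw gene counts, whole and unscaled, in 25445 rows and 1 column a library. The submitters' processing notes name HISAT2, StringTie and GRCh38, without versions; the counting program, its use of strand and the annotation are not given in the sources used here, nor whether counts are reads or rounded estimates. The study called DEGs with DESeq2 at a fold change above 1.5 and p under 0.05.

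From these counts, edgeR 4.0.16 (R 4.3.3, limma 3.58.1) fitted robust quasi-likelihood models with TMM scaling and no covariate after filterByExpr (minimum count 10, minimum total 15), with Benjamini-Hochberg adjustment over 15957 rows. CPM use TMM-scaled totals. Standard errors and 95% intervals came from the F statistic. DESeq2 1.42.0 was an alternative, beside other scalings and filters, a block for the replicate number and the removal of each library in turn. The methods were tested on simulated data. Totals of 31533403 to 38018349 counts per library set the precision of low genes. No 2 libraries of a group agreed within sampling noise (chi-square per row 22.2 to 62.4), so none was taken for a duplicate, which does not show that they are independent.

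The groups share replicate numbers, and no source used here says what a number marks. Deviations from the mean of the group correlated at 0.171, 0.18 and 0.312 between libraries with the same number, against −0.231 to 0.0795 between other pairs, so the numbers were taken to pair the libraries. Deviations within a group cancel out, so positive values for same-number pairs push the other pairs down, and the contrast is partly built in. With 3 libraries a group few matchings were possible, so the correlations cannot show that the numbers mark pairs.

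All 19974 Ensembl identifiers were found in GENCODE 29 (GRCh38), the source of coordinates and exon lengths. Promoter windows came from RefSeq (GRCh38.p14). The members and gene lists were chosen with earlier results of these data known. All 42 members were to be accounted for, with every library's value for those past the test with or without the block; of the further death genes those past the test, at most 8, and the transcription factors past the test were to be named. A result on 1 listed gene is not reported here.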

Additional observations from a re-analysis of the deposited data

How the results depend on the processing

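The 6 calls held under other scalings (DESeq2's size factors, upper quartile, library totals), without the filter on low counts, without the robust fit, over Ensembl rows alone, in DESeq2 and with the replicate block, and each was lost in at least 2 of the 6 fits that left out 1 library. With all libraries, TMM scaling, the filter and no block, the counts among the 40 genes in edgeR were 5 higher and 1 lower, with 1 DEG in each direction. Those higher numbered 6 with library totals, without the filter or over Ensembl rows alone, where XIAP also passed. In DESeq2 those higher numbered 7. With the replicate block the counts became 9 higher and 5 lower, and with DESeq2 and the block, an alternative chosen after seeing the data, 9 higher and 4 lower (BID was lost, adjusted p = 0.151), against 2 lower in DESeq2 without it. Of all rows tested, 9.16% passed in edgeR without the block and 26.93% with it, and 16.86% passed in DESeq2 and 25.95% in DESeq2 with the block. DEGs that rose numbered 2 with the block, in DESeq2 (at adjusted and at unadjusted p) and in DESeq2 with the block, and DEGs that fell numbered 0 with library totals alone and over Ensembl rows alone. Leaving out 1 library, with 1.24% to 9.86% of all rows past the test, gave 0 to 5 higher, 0 to 1 lower, 0 to 2 DEGs that rose and 0 to 1 that fell. Without replicate 3 of both groups, also chosen after seeing the data, these counts were 2, 0, 0 and 0, and 5.24% of all rows passed. The count of the 55 further death genes, 8, was 19 with the replicate block, 17 in DESeq2 with the block, 1 to 8 without 1 library and 5 without replicate 3, and VDAC1 was the call lost without the robust fit (adjusted p = 0.0600 in edgeR). That of the transcription factors, 5, was 3 to 5 without 1 library. The replicate block ended no call.

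Of 894 values of single genes over 16 alternatives, 763 kept their direction and their side of the threshold, 69 no longer passed, 31 newly passed and 31 changed sign, the last all in fits that left out libraries and in 16 genes that did not pass the test. Over these fits, without replicate 3 of both groups included, the log2 fold changes ran as follows: AIFM1 −0.0531 to 0.0524, APAF1 −0.253 to 0.082, BAK1 −0.0365 to 0.219, BAX −0.129 to 0.0502, BCL2L1 −0.0684 to 0.00624, BCL2L11 −0.00195 to 0.217, BMF −0.00625 to 0.117, BOK −0.177 to 0.108, CASP10 −0.0193 to 0.141, CASP8 −0.0692 to 0.0973, DIABLO −0.114 to 0.00847, MCL1 −0.0374 to 0.0892, RIPK1 −0.229 to 0.072, SHARPIN −0.0909 to 0.0155, TNFRSF10A −0.0804 to 0.112 and TNFRSF10D −0.386 to 0.695. With 3 libraries a group, 12 of the 34 genes that did not pass had a 95% interval that reached past 1.5-fold. HRK and BIK, at 14 to 34 counts in their lower libraries, rest on the thinnest depth. The causes of the changed calls were not tested.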
